A study of Mus musculus with 9 samples.

Results

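The heat shock proteins and DNAJ proteins are the chaperones that keep other proteins folded. Their genes were taken by symbol from a table of 23366 genes: 75 symbols began with Hspa to Hsph, Hsp90 or another Hsp number, or with Dnaja, Dnajb or Dnajc, and 3 of these (Hspg2, Hspbap1 and Hspbp1), which encode no chaperone of these classes, were left out, leaving 72. The 72 comprised 8 small heat shock protein genes, 14 of the HSP70 and HSP110 class, 3 of HSP90, the 2 mitochondrial chaperonin genes Hspd1 and Hspe1, 4 DNAJA, 13 DNAJB and 28 DNAJC genes. RNA was measured in CD8+ T cells isolated from B16F10 tumours, a transplantable mouse melanoma line, carried by C57BL/6 mice. One group of 5 libraries came from wild type (WT) mice and the other, of 4 libraries, from IL27ra KO mice, which lack the receptor chain that binds interleukin 27. Each library was made from the lysate of about 2000 cells on average, and no treatment beyond the tumour is stated for either group. The labels give no age, do not say which part of Il27ra was removed or in which cells, and leave unstated whether each library is a different animal. P-values therefore rest on how far these libraries vary, and part of that variation may be technical.

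HSP70 proteins bind exposed hydrophobic stretches of unfolded proteins and release them as ATP is bound and hydrolysed. DNAJ proteins deliver the client and switch on the ATPase through their J domain, while HSP110 proteins exchange the nucleotide. HSP90 acts later, on clients that are nearly folded, many of them kinases such as Lck in T cells. Small heat shock proteins hold unfolded proteins without ATP. Heat shock factor 1 (Hsf1) switches on the cytosolic inducible members by binding repeats of GAA, and the unfolded protein response of the endoplasmic reticulum (ER) switches on the ER members through its own element.

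The promoters of a few members are shown because they carry these elements in the genes that the results turn on: Hspb1, which was the member called, the near-identical stress genes Hspa1a and Hspa1b, and the ER chaperone gene Hspa5. They are the 250 bases before the annotated start in RefSeq on GRCm38.p6, which is not the build of the expression table, 5′ to 3′ on the strand of the gene. Capitals mark GAANNTTC, a pair of inverted heat shock units, in Hspb1, Hspa1a and Hspa1b, and the ER stress element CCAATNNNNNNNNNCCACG in Hspa5.
Hspb1 (chr5:135887669-135887918, plus strand): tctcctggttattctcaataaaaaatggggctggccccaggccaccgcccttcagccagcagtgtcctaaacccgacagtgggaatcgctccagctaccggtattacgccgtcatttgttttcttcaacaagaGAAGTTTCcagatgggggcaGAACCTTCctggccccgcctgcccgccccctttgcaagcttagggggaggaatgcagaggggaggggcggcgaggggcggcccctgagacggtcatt
Hspa1a (chr17:34972157-34972406, minus strand): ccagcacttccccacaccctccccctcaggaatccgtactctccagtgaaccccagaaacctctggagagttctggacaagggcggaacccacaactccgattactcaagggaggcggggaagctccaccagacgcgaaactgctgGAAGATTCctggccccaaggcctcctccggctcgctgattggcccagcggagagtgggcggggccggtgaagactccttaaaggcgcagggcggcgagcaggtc
Hspa1b (chr17:34959239-34959488, minus strand): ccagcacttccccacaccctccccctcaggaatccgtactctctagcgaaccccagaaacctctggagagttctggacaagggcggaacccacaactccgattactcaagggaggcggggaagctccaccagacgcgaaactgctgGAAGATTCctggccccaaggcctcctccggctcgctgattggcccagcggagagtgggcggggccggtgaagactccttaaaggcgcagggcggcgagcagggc
Hspa5 (chr2:34771840-34772089, plus strand): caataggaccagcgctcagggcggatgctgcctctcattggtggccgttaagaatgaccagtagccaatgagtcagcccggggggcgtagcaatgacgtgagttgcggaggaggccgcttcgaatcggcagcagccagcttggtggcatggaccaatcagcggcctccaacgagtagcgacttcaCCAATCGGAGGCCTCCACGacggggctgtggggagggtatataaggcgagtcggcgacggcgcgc
The matches began 117 and 97 bases before the start of Hspb1, 104 bases before those of Hspa1a and Hspa1b, and 65 bases before that of Hspa5. The Hspa1a and Hspa1b stretches were identical at 247 of 250 bases (98.8%). The mitochondrial chaperonin genes Hspd1 and Hspe1 lie head to head, and the 30 bases shown next fall in the window of Hspe1 and in that of 1 of the 2 annotated starts of Hspd1. Capitals mark overlapping matches of GAANNTTCNNGAA and its reverse complement TTCNNGAANNTTC.
Hspd1 (chr1:55088050-55088079, minus strand): gccTTCCGGAAGGTTCTAGAAcggaccgtg

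Windows of 250 bases before to 50 after the start were available for 58 of the 72 members and for 27025 genes in all. Searched on each strand, GAANNTTCNNGAA was in the windows of 4 members, Dnajb6, Hspd1, Hspe1 and Hsph1 (6.90%, against 0.662% of all genes). The shorter GAANNTTC, which is its own reverse complement and lies inside every match of the longer motif, was in those of 14 members (24.1%, against 9.04%). The ER stress element was in those of 3 members, Hspa5, Hsp90b1 and Dnajc3 (5.17%, against 0.137%). These are matches of letters, not measured binding.

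Levels are in FPKM, fragments per kilobase of gene scaled to library depth and by TMM, a scaling between libraries. The spacing of low values implied depths of 1730000 to 4050000 fragments per library. These depths carry the TMM scaling, so they are not counts of the fragments sequenced. The entry Rn45s made up 53.8% and 50.8% of the summed FPKM in WT replicates 3 and 4, and 23.9% to 30% in the other libraries. The 10374 genes whose mean reached 1 FPKM were tested. Il27ra, the targeted gene, had 25.7, 5.14, 15.2, 14.4 and 15.8 FPKM in WT replicates 1 to 5 and 4.09, 6.50, 5.62 and 7.80 FPKM in IL27ra KO replicates 1 to 4. The library labelled WT replicate 2 lay inside the IL27ra KO range, and the difference did not pass (log2 change -1.10; p = 0.0635 in a two-sided exact permutation test; limma's adjusted p = 0.0996). Without that library it passed, at -1.42 on the log2 scale (limma, adjusted p = 0.0035, and p = 0.0286 in the exact permutation test). That permutation p is the smallest that 4 against 4 libraries can give. The library was set apart by its Il27ra value, so a lower p without it was built in and adds no support for the labels. The same library also held the highest value of the 9 for 24.7% of all genes tested and the lowest for 28.5%. The CD8 T cell identity genes, 16 of 16 above 0 in every library, summed to 1223 to 1981 FPKM in WT and 579 to 1526 FPKM in IL27ra KO, where replicate 4 lay inside the WT range. Of these 16 genes 2 were lower in IL27ra KO and 14 did not pass. Markers of macrophages and monocytes summed to 48.2 to 346 FPKM in WT and 498 to 1576 FPKM in IL27ra KO, and 20 of 20 tested were higher in IL27ra KO. Of that list, Cd163, Ms4a7, Trem2, Cd14, Fcgr1 or Fcgr3 was at 0 in WT replicate 1, 3 or 4, and none was at 0 in the other libraries. Melanoma markers summed to 466 to 1503 and 735 to 1622 FPKM with none at 0. Of the 12 tested, with a median log2 change of 0.55, 11 did not pass. Kit was lower in IL27ra KO (log2 change -1.73; limma, adjusted p = 0.0014). Over all genes tested 1.11% were called lower and 3.13% higher. B cell markers summed to at most 3.58 FPKM with Ms4a1 at 0 in every library. Fibroblast and endothelial markers summed to at most 10.3 FPKM, with 1 to 5 of 9 at 0 per library. In such bulk libraries fewer cells of a type and less RNA per cell cannot be told apart.

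Among the chaperone genes 1 member was called, and their median change in the values as deposited lay close to that of all genes. Of the 72 genes, 58 reached a mean of 1 FPKM and were tested, and only Hspb1 passed, as lower in IL27ra KO (limma, adjusted p under 0.05 over all genes). Across all genes tested the same rule called 4.24%, 1.11% as lower and 3.13% as higher. With 1 library left out, Hspb1 passed in 5 of 9 cases, including that of WT replicate 2, and 0 members passed when WT replicate 1 or one of IL27ra KO replicates 1, 2 and 3 was missing, where 4, 2, 2 and 2 had an unadjusted p under 0.05 (limma). Of the other 57 members 0 passed, and 3 of them had an unadjusted p under 0.05 (Dnajb9, Dnajc24 and Dnajc1), where 15.1% of all genes did. The median log2 change of the 58 was 0.015, beside 0.023 over all genes, with 31 above and 27 below 0. Groups did not overlap for 2 members, Hspb1 and Hspa8, and for 6.73% of all genes. For 48 of the 58 the 95% interval of the change lay between -1 and 1 on the log2(FPKM + 1) scale. It did so for 77.5% of all genes tested, so this is not read as a trait of the members. That scale understates changes of low genes, so for members near 1 FPKM the interval does not bound the fold change of the FPKM.

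**Figure D1:**
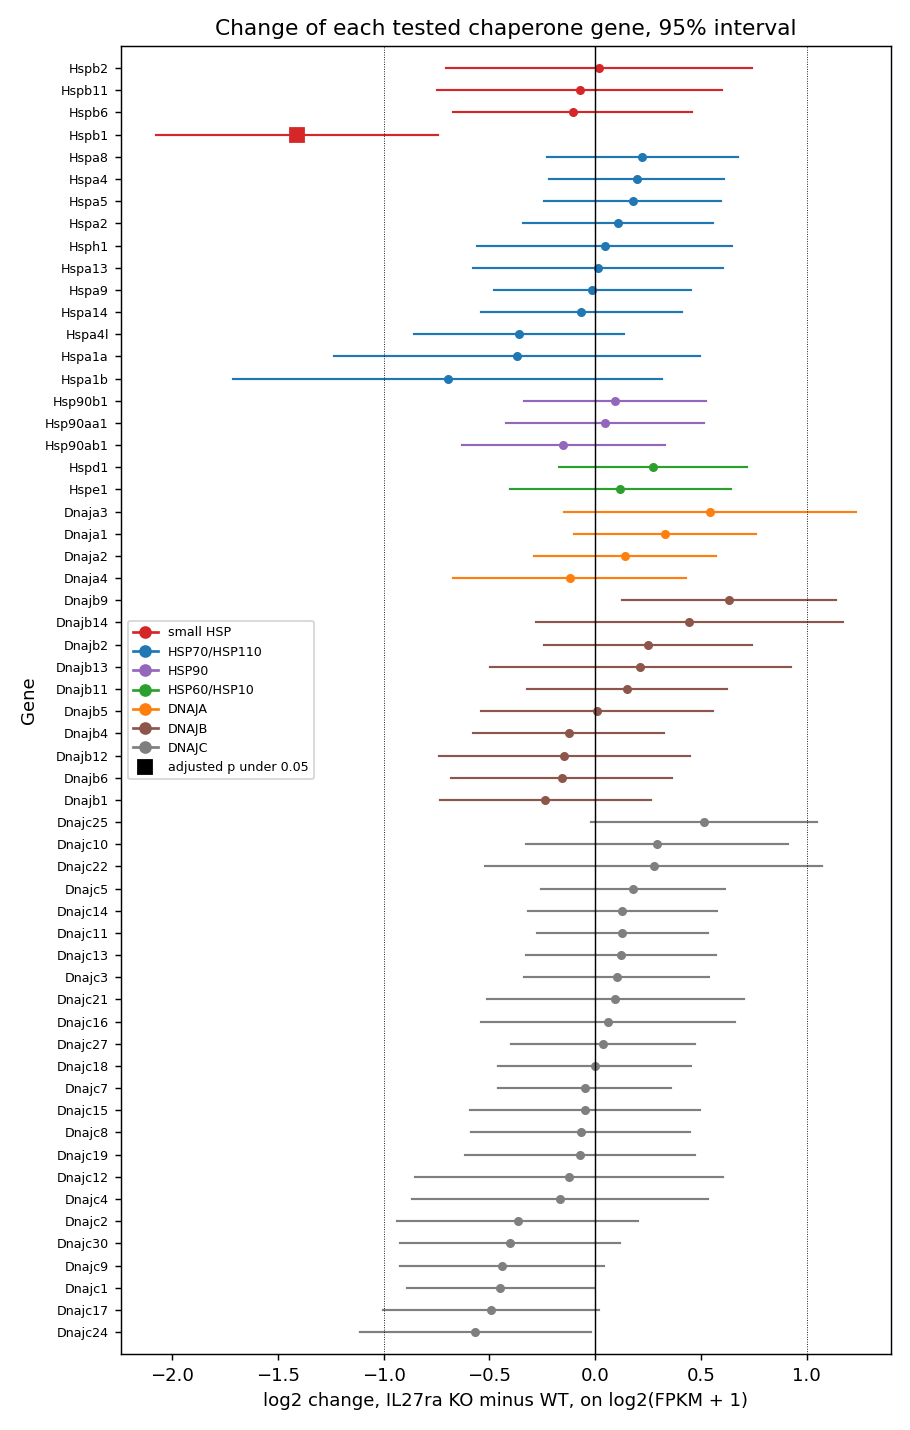
Change of each of the 58 tested chaperone genes between IL27ra KO and WT on the log2(FPKM + 1) scale (points) with its 95% interval (lines), coloured by class and ordered within it; dotted lines mark -1 and 1. The square of Hspb1 at -1.41 stands left of all others, whose points lie between -0.70 and 0.63.

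Hspb1 encodes the small heat shock protein HSP25 (HSP27 in humans), a stress-inducible holder of unfolded proteins that also acts on actin. It had 4.16, 5.36, 3.79, 0.94 and 2.15 FPKM in WT replicates 1 to 5 and 0.57, 0.32, 0.44 and 0.64 FPKM in IL27ra KO replicates 1 to 4. All WT libraries lay above all IL27ra KO libraries, with WT replicate 4 closest to them. The means were 3.28 ± 1.74 FPKM (SD, n = 5) and 0.49 ± 0.14 FPKM (SD, n = 4), and the fall was -1.41 on the log2 scale (SE 0.31; limma, adjusted p = 0.0186). A two-sided exact permutation test gave p = 0.0159, the smallest that 5 against 4 libraries can give. Any gene whose groups do not overlap gets this p, as 6.73% of all genes tested do. Hspb1 was also picked by its limma call on the same values, so the permutation p adds no separate support. These levels are low. At 0.916 kb, the mean length of its 2 annotated transcripts, they correspond to about 13, 11, 6, 2 and 8 fragments in the WT libraries and 2, 1, 1 and 2 in the IL27ra KO libraries. The 40 and 6 fragments give a ratio of 6.37 in WT over IL27ra KO per unit of TMM-scaled depth. Its exact 95% interval of 2.68 to 18.4 covers counting error only and is estimated from the spacing of the values. It pools fragments over libraries and leaves out the spread between them, and Hspb1 was picked on the same values. The interval therefore adds no separate support. The adjusted p was 0.0529 without WT replicate 1, 0.0514, 0.0675 and 0.0644 without IL27ra KO replicates 1, 2 and 3, and 0.0378 without WT replicate 2. The call was also lost with no filter on low genes (limma, adjusted p = 0.0552). With the macrophage level as a covariate the log2 change was -1.15 and did not pass (limma, adjusted p = 0.541), and 7 genes in all were then called. The summed macrophage markers did not overlap between the groups while the CD8 T cell identity sums did.

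**Figure D2:**
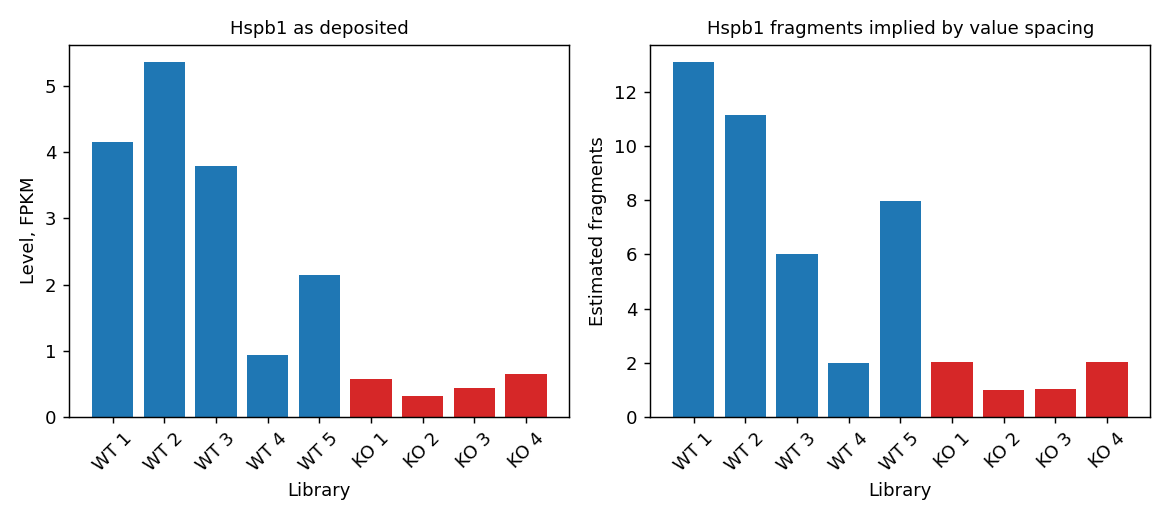
Hspb1 in each library, as deposited in FPKM (left) and as the number of fragments implied by the spacing of low values (right); blue bars are WT, red bars IL27ra KO. The IL27ra KO libraries reach at most 0.64 FPKM, or about 2 fragments, as does WT replicate 4 in fragments.

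None of the other 3 small heat shock protein genes tested passed. Hspb11, an intraflagellar transport protein that carries the name of the class, had 4.25 ± 1.96 FPKM (SD, n = 5) in WT and 4.03 ± 2.16 FPKM (SD, n = 4) in IL27ra KO. Hspb2 and Hspb6, known from muscle, had 1.78 and 1.44 FPKM in WT and 1.84 and 1.34 FPKM in IL27ra KO, with ranges that overlapped. Hspb3, Hspb7, Hspb8 and Hspb9 were below the filter, at up to 2.00 FPKM, and each was listed at 0 in 2 to 8 of the 9 libraries. The α-crystallin gene Cryab, a relative outside the symbol rule, had 10.2 ± 2.18 and 15.8 ± 5.15 FPKM and did not pass (log2 change 0.55).

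The inducible cytosolic HSP70 genes varied most between the WT libraries. Hspa1a and Hspa1b encode the same stress-induced HSP70, and because their transcripts are near-identical their separate values are uncertain. Hspa1b had 14.9, 58.2, 12.6, 5.51 and 8.31 FPKM in WT replicates 1 to 5 and 8.56, 7.52, 9.46 and 7.73 FPKM in IL27ra KO replicates 1 to 4. The IL27ra KO values fell inside the WT range, and WT replicate 2 stood far above the rest. Added together, Hspa1a and Hspa1b had 31.1, 88.4, 26.9, 11.4 and 16.1 FPKM in WT and 20.1, 22.9, 19.2 and 12.6 FPKM in IL27ra KO. Their means were 34.8 ± 31.0 FPKM (SD, n = 5) and 18.7 ± 4.35 FPKM (SD, n = 4), and 21.4 ± 9.17 FPKM for the WT libraries other than replicate 2. Hspa1b differed by -0.70 on the log2 scale (95% interval -1.71 to 0.32; limma, adjusted p = 0.558) and by -0.20 without the library labelled WT replicate 2. Hspa1a differed by -0.37 (95% interval -1.23 to 0.50), by -0.07 without that library and by -0.08 without IL27ra KO replicate 4. These were the widest intervals among the members, so a change of 2-fold downward was within them.

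Of the partners of inducible HSP70, Hspa4l was highest in the same library as Hspa1a and Hspa1b, and Dnajb1, Hsph1 and Dnaja1 were not. Dnajb1, the HSP40 that serves inducible HSP70, had 38.4, 37.7, 39.6, 27.5 and 19.4 FPKM in WT replicates 1 to 5 and 24.1, 29.1, 23.0 and 30.9 FPKM in IL27ra KO replicates 1 to 4. Hsph1, the HSP110 exchange factor, had 24.5, 11.02, 24.3, 18.5 and 15.1 FPKM in WT and 11.5, 16.7, 22.6 and 26.9 FPKM in IL27ra KO. WT replicate 2, the highest library for Hspa1a and Hspa1b, was the lowest for Hsph1 and the third highest for Dnajb1. Dnaja1, a DNAJ of the cytosol, had 32.1 ± 5.06 FPKM (SD, n = 5) in WT and 40.7 ± 8.19 FPKM (SD, n = 4) in IL27ra KO. Its highest value was 51.3 FPKM, in IL27ra KO replicate 4, and its highest in WT was 39.1 FPKM, in replicate 2. Hspa4l, another HSP110, had 2.24 ± 0.81 and 1.51 ± 0.51 FPKM and was highest in WT replicate 2, at 3.59 FPKM. None of these 4 passed, with log2 changes of -0.23, 0.05, 0.33 and -0.36 (adjusted p = 0.718, 0.965, 0.498 and 0.526). Of the 12 genes listed as induced by heat shock factor 1, 1 was lower and 11 did not pass, with a median log2 change of -0.05.

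**Figure D3:**
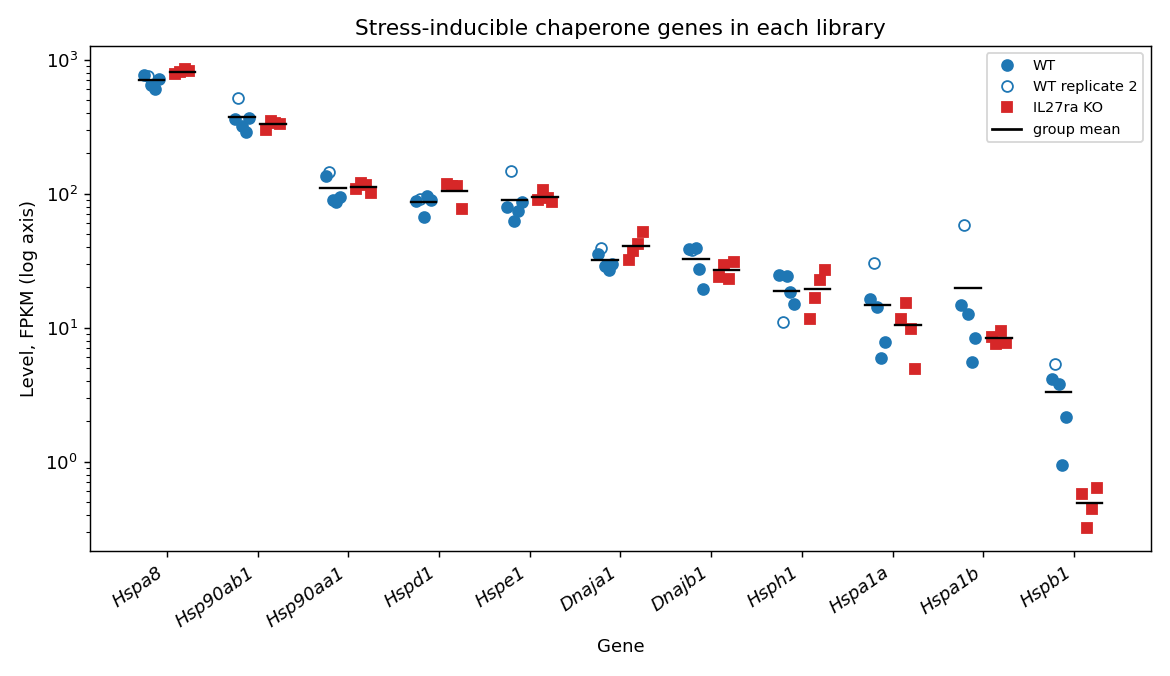
Level of 11 stress-inducible chaperone genes in each library, in FPKM on a log axis; blue circles are WT (open for the library labelled WT replicate 2), red squares IL27ra KO, and black lines the group means. Hspb1 and Hspa8 are the genes whose groups do not overlap, and Hspa1b in WT replicate 2 stands at 58.2 FPKM.

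Hspa8, the constitutive HSC70, was the most abundant chaperone RNA per length of gene. It had 761, 761, 652, 604 and 715 FPKM in WT replicates 1 to 5 and 775, 806, 853 and 818 FPKM in IL27ra KO replicates 1 to 4. Every IL27ra KO library lay above every WT library, by a narrow margin. The means were 699 ± 69.2 FPKM (SD, n = 5) and 813 ± 32.0 FPKM (SD, n = 4), and the log2 change of 0.22 did not pass (SE 0.21; limma, adjusted p = 0.697). Hspa8 made up 74.1% ± 1.76 (SD, n = 5) of the summed FPKM of its class in WT and 76.7% ± 1.46 (SD, n = 4) in IL27ra KO. Hspa4, an HSP110 of the cytosol, had 23.6 ± 3.71 and 27.1 ± 3.95 FPKM. Hspa14, which works at the ribosome, had 15.6 ± 4.14 and 14.8 ± 3.14 FPKM. Hspa2, known from testis, had 3.14 ± 0.92 and 3.40 ± 0.54 FPKM. Hspa1l and Hspa12b were under 1 FPKM in every library and Hspa12a was listed at 0 in all 9.

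HSP90 RNA came next in abundance. Hsp90ab1, the constitutive HSP90β, had 363, 518, 321, 288 and 368 FPKM in WT replicates 1 to 5 and 299, 351, 335 and 328 FPKM in IL27ra KO replicates 1 to 4. Hsp90aa1, the inducible HSP90α, had 135, 145, 89.3, 86.6 and 93.8 FPKM in WT and 108, 120, 116 and 100.3 FPKM in IL27ra KO. The IL27ra KO values of each gene lay within its WT range, which WT replicate 2 topped. The log2 changes were -0.15 (95% interval -0.63 to 0.33) and 0.05 (95% interval -0.42 to 0.51). Within a library, where scaling cancels, the ratio of Hsp90aa1 to Hsp90ab1 was 0.255 to 0.371 in WT and 0.305 to 0.362 in IL27ra KO, that of Hspa5 to Hspa8 0.143 to 0.167 and 0.121 to 0.172, and that of Hspa1a plus Hspa1b to Hspa8 0.0189 to 0.116 and 0.0154 to 0.0284. Each of these ranges overlapped between the groups.

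**Figure D4:**
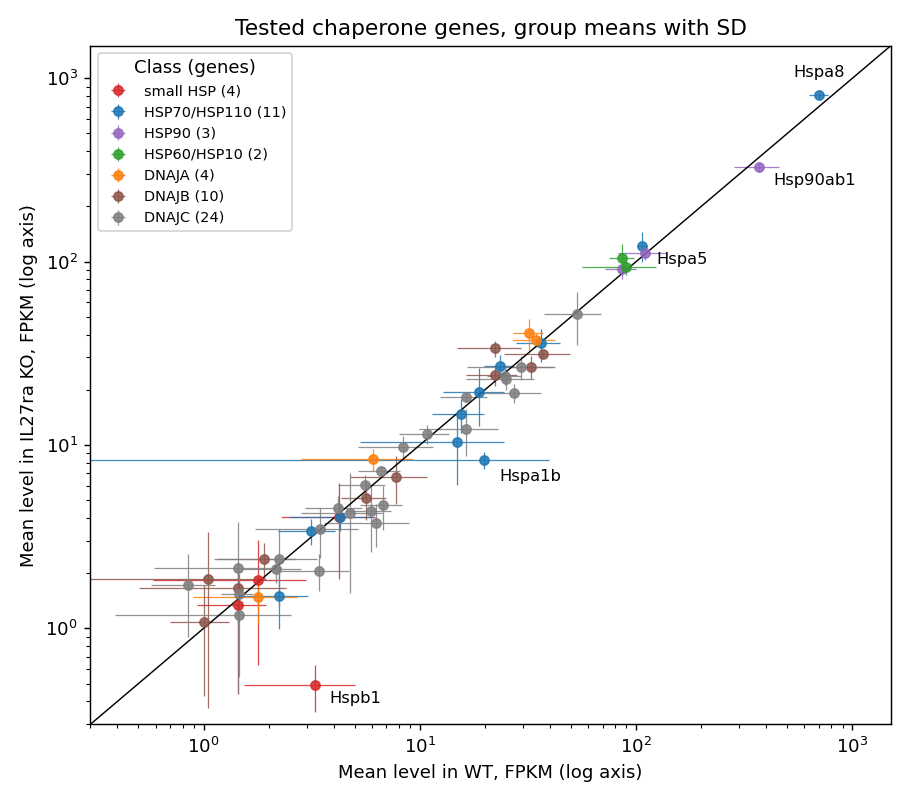
Mean level of the 58 tested chaperone genes in WT (horizontal) and IL27ra KO (vertical), in FPKM on log axes, coloured by class; bars are SD and run to the edge where the SD is near or above the mean, and the line marks equal levels. Most genes lie along the line from about 1 FPKM up to Hspa8 at 699 and 813 FPKM, and Hspb1 lies below it.

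**Figure D5:**
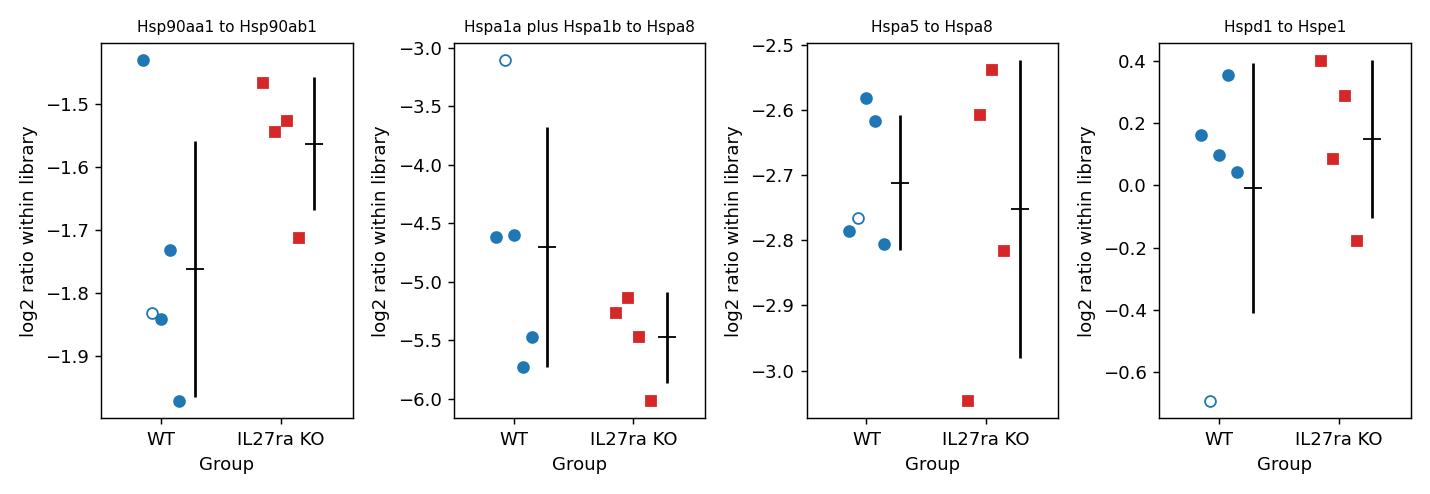
Log2 ratio of a pair of chaperone RNAs within each library, for 4 pairs; blue circles are WT (open for the library labelled WT replicate 2), red squares IL27ra KO, and black bars the group mean with SD. The groups overlap in each panel, and the open circle is highest for Hspa1a plus Hspa1b to Hspa8 and lowest for Hspd1 to Hspe1.

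The mitochondrial chaperones did not differ past the threshold. Hspd1 (HSP60) and Hspe1 (HSP10), which form the folding chamber of the matrix and share the stretch shown above, had 86.2 ± 11.2 and 90.0 ± 33.5 FPKM in WT (SD, n = 5) and 105 ± 19.4 and 93.7 ± 9.28 FPKM in IL27ra KO (SD, n = 4). Their log2 changes were 0.27 (95% interval -0.17 to 0.72) and 0.12 (95% interval -0.40 to 0.64). Although they share that stretch, the ratio of Hspd1 to Hspe1 ran from 0.618, in WT replicate 2, to 1.28 in WT and from 0.884 to 1.32 in IL27ra KO. Hspa9 (mortalin), the HSP70 that pulls proteins into the matrix, had 36.1 ± 8.22 and 35.8 ± 7.31 FPKM. Its import partner Dnajc19 had 22.8, 52.3, 24.3, 22.7 and 24.7 FPKM in WT replicates 1 to 5 and 27.5, 28.5, 20.9 and 29.3 FPKM in IL27ra KO replicates 1 to 4, so that WT replicate 2 stood apart. Dnajc15, known as MCJ, a brake on respiratory complex I in CD8 T cells, was the most abundant DNAJC at 53.2 ± 15.6 and 51.6 ± 16.4 FPKM. It had 79.5 FPKM in WT replicate 2 and 74.6 FPKM in IL27ra KO replicate 4, and 38.2 to 52.8 FPKM in the other libraries. Dnaja3 (TID1) had 6.07 ± 3.25 and 8.38 ± 1.15 FPKM, a log2 change of 0.54 that was 0.26 without the library labelled WT replicate 2, in which it was lowest at 1.90 FPKM. Dnajc11, of the cristae junction complex, differed by 0.13, and Dnajc30 and Dnajc4 by -0.40 and -0.17. Of the 9 tested members listed for mitochondria 0 passed, with a median log2 change of -0.01, and Dnajc28 was under 1 FPKM in every library.

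In the ER, Hspa5 (BiP), the HSP70 of that compartment, had 110, 112, 109, 98.6 and 103 FPKM in WT replicates 1 to 5 and 93.6, 133, 146 and 116 FPKM in IL27ra KO replicates 1 to 4. WT values were close together, and IL27ra KO values reached above and below them. Its log2 change was 0.18 (95% interval -0.24 to 0.60), and that of Hsp90b1 (GRP94), the ER HSP90, was 0.09 (95% interval -0.34 to 0.52). Dnajb9 (ERdj4), which helps to remove misfolded proteins from the ER, had 32.5, 13.6, 17.8, 21.7 and 25.2 FPKM in WT and 30.5, 31.4, 38.2 and 34.6 FPKM in IL27ra KO. WT replicate 1 alone among the WT libraries reached the IL27ra KO range. Its log2 change of 0.63 was the largest positive one among the members (SE 0.24; limma, unadjusted p = 0.0177, adjusted p = 0.191) and was 0.48 without the library labelled WT replicate 2. Dnajc1 (ERdj1), an ER membrane protein, had 6.77 ± 1.47 FPKM (SD, n = 5) in WT and 4.73 ± 1.28 FPKM (SD, n = 4) in IL27ra KO, a log2 change of -0.45 (limma, unadjusted p = 0.0471, adjusted p = 0.321). Dnajb11 (ERdj3), Dnajc3 (ERdj6), Dnajc10 (ERdj5, a disulfide reductase), Hspa13 and the membrane proteins Dnajb12 and Dnajb14 differed by 0.15, 0.10, 0.29, 0.01, -0.15 and 0.44. Single libraries set several of these differences, none of which passed: without the library labelled WT replicate 2 those of Dnajc10, Hspa13 and Dnajb12 were 0.01, -0.23 and 0.02, and without IL27ra KO replicate 1 that of Dnajb14 was 0.13. Of the 10 ER members 0 passed, with a median log2 change of 0.13.

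Among the remaining DNAJ genes, which direct HSP70 to separate tasks, none passed. Dnajc24 (DPH4), of diphthamide synthesis on elongation factor 2, had 4.36, 10.7, 5.75, 4.29 and 6.10 FPKM in WT replicates 1 to 5 and 2.39, 3.68, 4.62 and 4.35 FPKM in IL27ra KO replicates 1 to 4. The groups overlapped, and the log2 change of -0.57 (SE 0.25; limma, unadjusted p = 0.0426, adjusted p = 0.307) was -0.38 without the library labelled WT replicate 2, its highest. Dnajc17, linked to splicing, and Dnajc25 differed by -0.49 and 0.52 (adjusted p = 0.356 and 0.354). Dnajc9, a histone chaperone, had 27.3 ± 9.07 FPKM (SD, n = 5) in WT and 19.3 ± 2.30 FPKM (SD, n = 4) in IL27ra KO, a log2 change of -0.44 (limma, adjusted p = 0.392) that was -0.27 without the library labelled WT replicate 2, in which it had 42.9 FPKM. Dnajb6, which keeps proteins from aggregating, was the most abundant DNAJB at 36.9 ± 12.6 and 31.5 ± 1.34 FPKM, and Dnaja2 of the cytosol had 34.4 ± 7.80 and 37.4 ± 3.36 FPKM. The DNAJA, DNAJB and DNAJC classes had median log2 changes of 0.24, 0.08 and -0.03 over 4, 10 and 24 tested genes, those of HSP70 and HSP110, HSP90 and the chaperonins were 0.01, 0.05 and 0.20 over 11, 3 and 2, and that of the small heat shock proteins was -0.09 over 4. The summed FPKM of all 72 genes was 2175 ± 318 (SD, n = 5) in WT and 2270 ± 103 (SD, n = 4) in IL27ra KO. Dnajb3, Dnajb7, Dnajb8, Dnajc5b, Dnajc5g and Dnajc6 had at most 0.43 FPKM and were listed at 0 in 3 to 8 libraries.

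The library labelled WT replicate 2 held the highest value of the 9 for 21 of the 58 tested members (36.2%) and the lowest for 15 (25.9%), shares to be read beside the 24.7% and 28.5% over all genes given above. In the DNAJC class it was the highest for 10 of 24 and the lowest for 8.

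The regulators and partners of the chaperones outside the symbol rule gave few calls. Of 4 tested heat shock factor genes 0 passed: Hsf1 had 10.7 ± 2.32 FPKM (SD, n = 5) in WT and 12.1 ± 2.15 FPKM (SD, n = 4) in IL27ra KO, and Hsf2 had 5.196 ± 2.05 and 4.14 ± 1.65 FPKM. Hsf4 and the HSF-binding gene Hsbp1 differed by 0.36 and 0.14, while Hsf3 was listed at 0 in all 9 libraries and Hsf5 was at most 0.27 FPKM. Of 11 tested nucleotide exchange factors of HSP70, 22 co-chaperones and 13 subunits of the cytosolic chaperonin and prefoldin, 0 passed, with median log2 changes of 0.17, 0.09 and -0.05. Of 23 ER folding and unfolded protein response genes 22 did not pass, and the median log2 change of the list was 0.20. Chac1, a glutathione-degrading enzyme induced by that response, fell from 4.01 ± 1.31 to 1.498 ± 0.52 FPKM (log2 change -0.98, SE 0.24; limma, adjusted p = 0.0304). This 1 call in 23 is near the 4.24% of all genes called in either direction. Among 18 immediate-early genes, which cell isolation can also induce, 4 rose and 14 did not pass, beside the 3.13% of all genes called higher. Fos, Fosb, Atf3 and Zfp36 rose by 1.14, 0.75, 1.81 and 1.15 on the log2 scale (limma, adjusted p = 0.0110, 0.0242, 0.0117 and 0.0031). That list summed to 822 to 1413 FPKM in WT and 1423 to 1581 FPKM in IL27ra KO, beside 1235 to 1849 and 1480 to 1617 FPKM for the heat shock factor 1 list. In IL27ra KO replicates 1 to 4 the macrophage markers summed to 1442, 1211, 1576 and 498 FPKM. In the same order Atf3 had 44.9, 22.8, 39.8 and 11.5 FPKM and Fos 195, 177, 208 and 130 FPKM. Fosb had 27.8, 24.3, 31.7 and 27.7 FPKM and Zfp36 87.0, 64.3, 70.6 and 67.7 FPKM, neither of them lowest in replicate 4. The part of the macrophage markers in these rises was not tested.

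The CD8 T cell identity genes had a median log2 change of -0.72, and the fit was repeated with each library scaled to them. That scaling moved the median change of all genes from 0.02 to 0.61 and that of the chaperones from 0.01 to 0.61, and 1071 genes were then called higher and 50 lower, against 325 and 115 as deposited. Under it Hspa8, Dnaja1 and Dnajb9 passed as higher in IL27ra KO (log2 change 0.93, 1.02 and 1.31; limma, adjusted p = 0.0342, 0.0313 and 0.0224), beside 10.3% of all genes called higher. Hspb1 remained lower (-1.03, limma, adjusted p = 0.0451).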

How the data were processed

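RNA sequencing of bulk CD8+ T cells gave 9 libraries, 5 WT and 4 IL27ra KO, grouped by the sample titles. Per the labels, RNA from 5 µL of lysate was cleaned on SPRI beads and copied by an adaptation of SMART-Seq 2, which has no molecular identifiers, so PCR copies add to the spread. The authors deposited FPKM per gene, computed by RSEM and scaled by TMM, per the labels. The submitters' processing notes also name TopHat, DESeq and the build mm9. The sources used here do not state versions, strand setting or annotation. RSEM divides reads shared by near-identical genes, and many chaperone genes have processed pseudogenes. TMM scaling takes the bulk of genes as level between libraries.

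From these values log2(FPKM + 1) was computed, 10374 of 23366 genes were kept (those averaging 1 FPKM or more), and IL27ra KO was compared with WT by limma 3.58.1 in R 4.3.3 (lmFit, eBayes with trend), with Benjamini-Hochberg adjustment over all genes and a threshold of 0.05. Fold changes on this scale understate those of low genes. Single values were compared with an exact permutation test over 126 splits (scipy 1.17.1). Depth was estimated from 2434 coding genes with 1 transcript of 1000 bases or more (GENCODE M21), by finding the FPKM of 1 fragment whose whole multiples the low values sit on. Per library 64.1% to 70.0% of low values were within 0.1 of such a multiple, against 20% if evenly spread. Lengths come from another build, so fragment numbers are estimates. The values carry the TMM scaling, and so do the depths. On simulated data for IL27ra KO against WT, with 200 of 10374 genes changed, the fit found 43.5% of changes of 1 log2 unit, 96.5% of those of 2 and 99% of those of 3.

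The members, classes and gene lists were chosen with earlier results of these data known. Named were the members past the threshold, those of the heat shock factor 1, ER and mitochondrial lists, and the 10 most abundant. Also named were the 5 with the largest rise and fall, the heat shock factors, and up to 4 called genes of each other list. Called genes of the CD8 T cell identity and macrophage lists were counted and not named as calls. Hspa2, Hspa4, Hspa14, Hspb2, Hspb6, Hspb11, Dnaja2, Dnajb6, Dnajc9, Cryab and the members below the filter were named after their values were seen. So were the macrophage and B cell markers named as at 0. The fit was repeated with a pseudocount of 0.1 or 5, without the filter or with one at 5 FPKM, after quantile normalization, with equal totals without Rn45s, with scaling to CD8 T cell identity genes, with robust regression, with library weights, with a replicate block, with the macrophage level as covariate, and without each library in turn. For the ratios within a library, leaving out each library was added after seeing the data. There were 0 columns of other samples.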

Additional observations from a re-analysis of the deposited data

Results flagged for a closer look

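Of 66 groups of named members tested for a library apart from the rest of its group on the log2(FPKM + 1) scale, 5 stood out by Dixon's test, where chance flags about 1 in 20, or about 3. Dnajc19 had 52.31 FPKM in WT replicate 2, against 22.7 to 24.7 FPKM in the other WT libraries. Dnajc10 had 3.04 FPKM in WT replicate 2, against 8.31 to 11.3 FPKM. Hspa9 had 50.49 FPKM in WT replicate 1, against 29.7 to 34.6 FPKM. Hspd1 had 66.81 FPKM in WT replicate 3, against 88.5 to 95.2 FPKM in the other WT libraries, and 76.15 FPKM in IL27ra KO replicate 4, against 113 to 117 FPKM in the other IL27ra KO libraries.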

How the results depend on the processing

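Of 633 values of 32 named members under 20 alternatives, 624 kept their side of the threshold; 55 that were called in neither fit changed sign. The changes were Hspa8, Dnaja1 and Dnajb9, called under CD8 T cell identity scaling, and Hspb1. The Hspb1 call was lost with no filter (-1.41, limma, adjusted p = 0.0552) and with the macrophage level as a covariate (-1.15, adjusted p = 0.541), and leaving out 1 library gave -1.67 to -1.24; under the filter at 5 FPKM it was not tested. Members called numbered 0 with no filter, at 5 FPKM and with the macrophage covariate (3, 1 and 4 at an unadjusted p under 0.05), 4 with CD8 identity scaling and 0 to 1 without 1 library. Genes called numbered 219 at 5 FPKM, 1121 with CD8 identity scaling, 974 with library weights, 7 with the macrophage covariate and 226 to 632 without 1 library, against 440; the lowest came without IL27ra KO replicate 3, and replicates 1 and 2 gave 242 and 268. Class medians with CD8 identity scaling were 0.36 (small), 0.66 (HSP70 and HSP110), 0.75 (HSP90), 0.90 (HSP60 and HSP10), 0.92 (DNAJA), 0.59 (DNAJB), 0.61 (DNAJC) and 0.61 (all). With the macrophage covariate they were -0.68 (small), -0.19 (HSP90), -0.56 (HSP60 and HSP10), 0.67 (DNAJA), -0.21 (DNAJC) and -0.16 (all), and at 5 FPKM DNAJB was -0.13. Leaving out 1 library gave -0.272 to 0.001 for small heat shock proteins and -0.06 to 0.07 for DNAJC. Il27ra passed with library weights (-1.42, adjusted p = 0.0012) and ran from -1.42, without WT replicate 2 (adjusted p = 0.0035), to -0.89 without 1 library. The causes of these shifts were not tested. Same-numbered libraries of the groups did not deviate together (correlations 0.003, -0.008, -0.066 and -0.147). Other differences between libraries, as in macrophage markers, enter these correlations, so they cannot settle whether the numbers pair libraries. With the replicate block 273 genes were called and Hspb1 was the member called. At these depths a member near 1 FPKM rests on a few fragments.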
